A study of Mus musculus with 6 samples.

Results

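A set of 10 genes switched on by Wnt signalling in the hepatocytes around the central vein was examined in mouse liver RNA. They were picked by symbol from the gene table and comprise Lgr5, Rnf43, Znrf3, Axin2, Tbx3, Glul, Oat, Slc1a2, Rhbg and Lect2. All 10 were found among the 34745 genes of the table, and 10 of 10 passed the filter on low counts that left 14137 genes for testing. Livers came from mice fed an MCD diet, which lacks methionine and choline, for 6 weeks. There were 3 libraries labelled Sox9HKO (replicates 9, 10 and 12) and 3 labelled Sox9f/f (replicates 5, 6 and 8), the floxed control genotype. Every mouse was on that diet, so no group shows the liver without it. The labels give neither the Cre driver, the age nor the sex of the mice, and they do not say whether each library came from 1 animal.

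Wnt2, Wnt9b and R-spondin 3 are known to come from endothelial cells of the central vein, and their reach sets up a narrow zone of hepatocytes with active beta-catenin. Wnt proteins bind Frizzled receptors with the co-receptors Lrp5 and Lrp6, which stops the destruction complex from degrading beta-catenin and lets it act with TCF/LEF factors on target genes. The targets include enzymes that clear ammonia into glutamine, and feedback genes of the pathway itself. Whole-liver RNA does not record where in the lobule a transcript lay.

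Sequencing depth ran from 22826962 to 27286864 gene counts a library. Levels below are CPM, counts scaled to a common library size with TMM factors, unless FPKM, a level per gene length, is named. Fold changes are those of edgeR's quasi-likelihood test, Sox9HKO over Sox9f/f, on the log2 scale with their SE, and adjusted p-values are Benjamini-Hochberg values over all 14137 genes. Sox9 itself went against its label read as a loss of the gene, with 411, 491 and 626 counts in the libraries labelled Sox9HKO and 127, 138 and 143 in those labelled Sox9f/f. Each direction below is therefore one between labels. Sox9HKO replicate 12 stood furthest from the rest, with a chi-square over its degrees of freedom of 87.8 to 109 against the counts of each other library, where the other pairs gave 34.9 to 80.7. Each of the 10 genes is given with its range over the 6 fits that left out 1 library, or with the fits that moved it most. In bulk tissue, fewer cells of a type and less RNA per cell cannot be told apart.

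The stretch before the start of transcription was read for the letters that TCF/LEF factors bind, since the 10 genes are grouped by their dependence on beta-catenin. RefSeq windows (GRCm38.p6) were at hand for 6 of the 10 genes, Glul, Oat, Axin2, Rnf43, Slc1a2 and Lect2, in 7 windows of 250 bases before the start. The letters CTTTGAT, or ATCAAAG on the other strand, occurred in the windows of 2 genes, Slc1a2 and Lect2, and in 3.21% of 32851 such windows over all genes. CTTTGAA, or TTCAAAG on the other strand, occurred in none of the 7 windows and in 4.46% of all. The windows of Slc1a2 and Lect2 are printed for their match, and that of Glul because it had the highest level of the 10 and holds no match. Sequences run 5′ to 3′ on the strand of the gene and end at the base before the start, with the matched letters in capitals. The match lies 207 bases before the start in Slc1a2 and 32 bases before it in Lect2. The Slc1a2 window and the Rnf43 windows precede starts inside the spans that the table gives for these genes. A match describes letters and not a bound site.
Lect2, chr13:56548539-56548788, minus strand: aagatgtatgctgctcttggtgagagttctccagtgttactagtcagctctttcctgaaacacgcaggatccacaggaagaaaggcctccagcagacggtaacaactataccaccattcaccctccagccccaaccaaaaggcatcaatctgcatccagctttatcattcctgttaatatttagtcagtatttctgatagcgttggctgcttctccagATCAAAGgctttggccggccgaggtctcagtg
Slc1a2, chr2:102706188-102706437, plus strand: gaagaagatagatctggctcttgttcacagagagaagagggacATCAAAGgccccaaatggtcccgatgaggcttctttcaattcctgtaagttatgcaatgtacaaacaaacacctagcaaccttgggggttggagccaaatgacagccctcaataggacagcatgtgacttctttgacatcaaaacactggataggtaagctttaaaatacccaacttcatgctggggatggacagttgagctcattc
Glul, chr1:153899679-153899928, plus strand: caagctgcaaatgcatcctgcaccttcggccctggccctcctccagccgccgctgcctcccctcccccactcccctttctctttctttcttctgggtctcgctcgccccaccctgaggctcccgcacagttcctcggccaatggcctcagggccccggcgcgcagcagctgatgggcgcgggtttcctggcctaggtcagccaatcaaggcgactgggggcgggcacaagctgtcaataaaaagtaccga

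No gene of the 10 was called different between the labels. In edgeR 0 of 10 passed an adjusted p of 0.05 in either direction, where the share called over all genes was 0%. DESeq2 called 0 of 10, against 4.28% of all genes. Znrf3 alone, 1 of 10, was higher with an unadjusted p under 0.05, where 9.74% of the genes tested were higher and 10.1% lower. The CPM of the groups overlapped for each of the 10, while 26.5% of all genes had groups that did not overlap. All 10 log2 fold changes were positive, from 0.02 for Lect2 to 0.65 for Znrf3, with a median of 0.25. Over all genes tested the median was 0.00 and 50.5% were positive. The 10 genes deviated together in the libraries, as described below, so their signs do not count as 10 separate observations.

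**Figure D1:**
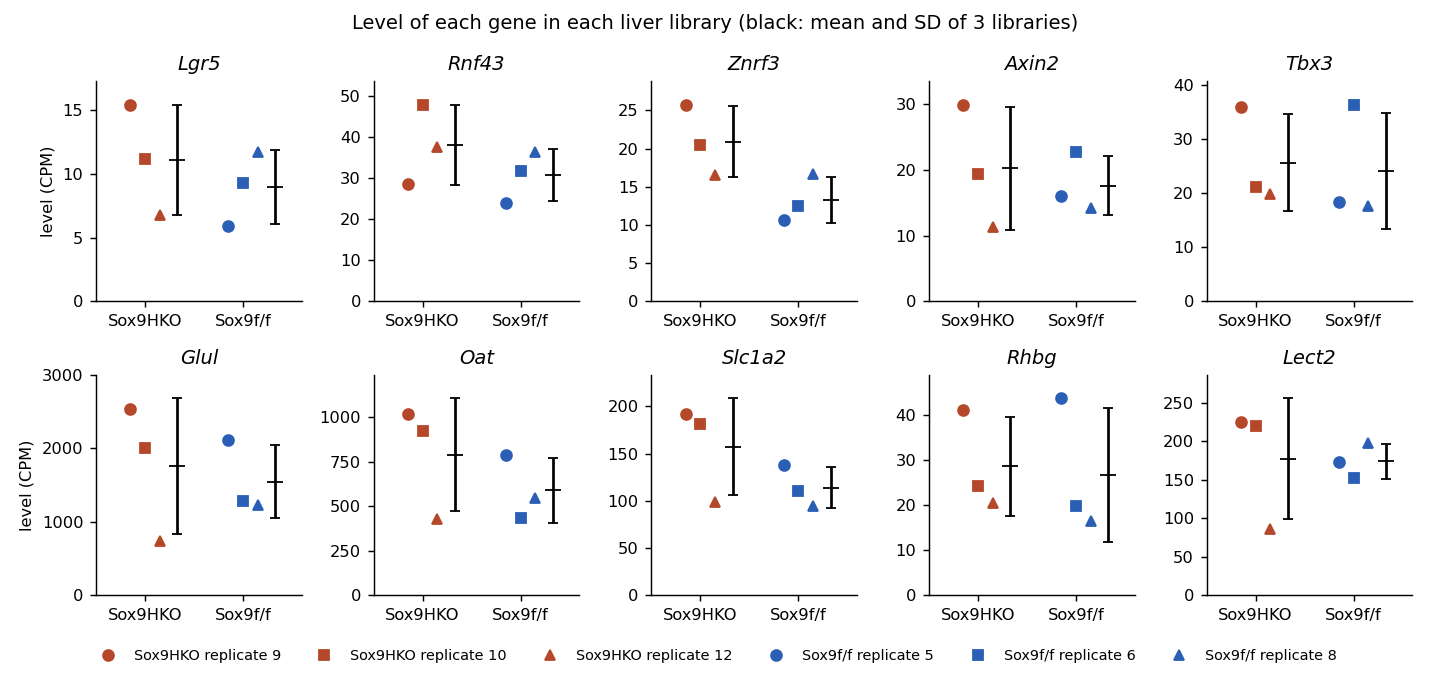
Level in CPM (linear axis from 0) of each of the 10 genes in each library, with Sox9HKO libraries on the left and Sox9f/f libraries on the right of every panel and the mean and SD of 3 libraries in black. The groups overlap in every panel, and Sox9HKO replicate 9 is the highest and replicate 12 the lowest of their group in all panels but Rnf43.

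The receptor and its antagonists come first. Lgr5 is a receptor for R-spondins and marks hepatocytes next to the central vein. Its gene spans 115450311 to 115587780 on the minus strand of chromosome 10 (GRCm38, as are all positions here). Lgr5 had 15.4, 11.1 and 6.79 CPM in Sox9HKO replicates 9, 10 and 12, against 5.89, 9.28 and 11.7 CPM in Sox9f/f replicates 5, 6 and 8. The ranges of the groups largely coincided. Its log2 fold change was 0.31 ± 0.34 (adjusted p = 0.630), and -0.00 without Sox9HKO replicate 9, 0.56 without replicate 12 and 0.09 without Sox9f/f replicate 5.

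Rnf43 and Znrf3 are related membrane ubiquitin ligases that remove Frizzled receptors from the cell surface and are held in check by R-spondin bound to Lgr receptors. Rnf43 (chromosome 11, 87662722 to 87735539, plus strand) had 28.5, 47.8 and 37.6 CPM in Sox9HKO replicates 9, 10 and 12, against 24.0, 31.8 and 36.4 CPM in Sox9f/f replicates 5, 6 and 8. It was the 1 gene of the 10 in which replicate 9 was the lowest Sox9HKO library. The log2 fold change was 0.31 ± 0.22 (adjusted p = 0.455). It was 0.11 without Sox9HKO replicate 10, 0.16 without Sox9f/f replicate 5, 0.47 without Sox9HKO replicate 9 and 0.31 without Sox9HKO replicate 12. Rnf43 contains a small intronic transcript on its own strand, 1110028F11Rik, to which 26 to 85 counts were assigned.

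Znrf3 (chromosome 11, 5276324 to 5444847, minus strand) had the largest fold change of the 10. It had 25.8, 20.4 and 16.6 CPM in Sox9HKO replicates 9, 10 and 12, against 10.7, 12.5 and 16.6 CPM in Sox9f/f replicates 5, 6 and 8. The groups overlapped only through a near tie of Sox9HKO replicate 12 with Sox9f/f replicate 8. In FPKM, which is scaled by library total without TMM, the same libraries stood at 1.56 and 1.49. The TMM factors were 1.03 to 1.06 in Sox9HKO and 0.953 to 0.976 in Sox9f/f. Scaling without them therefore raises Sox9HKO against Sox9f/f for every gene. The log2 fold change of Znrf3 was 0.65 ± 0.22, or 1.57-fold, with an adjusted p of 0.182 in edgeR and 0.0922 in DESeq2. It was positive under 16 of 16 alternative settings, from 0.48 without Sox9HKO replicate 9 to 0.85 without Sox9f/f replicate 8, and past the threshold in none. Without Sox9HKO replicate 12 it was 0.79.

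Axin2 and Tbx3 act inside the cell. Axin2 is a scaffold of the destruction complex and a feedback target used as a general readout of Wnt signalling. Its position is chromosome 11 from 108920349 to 108950783 (plus strand). Axin2 had 29.9, 19.4 and 11.3 CPM in Sox9HKO replicates 9, 10 and 12, against 15.9, 22.7 and 14.2 CPM in Sox9f/f replicates 5, 6 and 8. The highest and the lowest value over all 6 libraries both belonged to Sox9HKO. Its log2 fold change was 0.20 ± 0.34 (adjusted p = 0.769), and it turned to -0.20 without Sox9HKO replicate 9 and stood at 0.48 without replicate 12.

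Tbx3 is a T-box transcription factor that beta-catenin switches on in liver. It lies on chromosome 5 from 119670669 to 119684724 (plus strand), overlapping the antisense gene Tbx3os1, which had 46 to 116 counts. Tbx3 had 36.0, 21.1 and 19.8 CPM in Sox9HKO replicates 9, 10 and 12, against 18.4, 36.5 and 17.6 CPM in Sox9f/f replicates 5, 6 and 8. One library of each group stood apart at about the same level, Sox9HKO replicate 9 and Sox9f/f replicate 6. The log2 fold change of 0.09 ± 0.33 (adjusted p = 0.905) turned negative in 3 of the 6 fits that left out 1 library. It was -0.24 without Sox9HKO replicate 9, 0.24 without replicate 12 and 0.53 without Sox9f/f replicate 6.

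The remaining genes carry out metabolic and secretory work. Glul encodes glutamine synthetase, which joins ammonia to glutamate and is the standard marker of the innermost ring of hepatocytes. It lies on chromosome 1 from 153899944 to 153909723 (plus strand), and its start overlaps Teddm2, which had 15 to 40 counts. Glul had 67802, 54463 and 20189 counts in Sox9HKO replicates 9, 10 and 12, against 46447, 33247 and 30411 counts in Sox9f/f replicates 5, 6 and 8. In CPM this was 2531, 2007 and 733 in Sox9HKO, against 2121, 1280 and 1234 in Sox9f/f. Sox9HKO replicate 9 was 3.45-fold above replicate 12, while the highest Sox9f/f library was 1.72-fold above the lowest. The mean was 1757 ± 924 CPM in Sox9HKO and 1545 ± 499 CPM in Sox9f/f (SD, n = 3 each). The log2 fold change was 0.19 ± 0.42 with an adjusted p of 0.828. Without Sox9HKO replicate 12 it was 0.55, and without replicate 9 it was -0.18, so the direction of Glul rested on single libraries.

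Oat, ornithine aminotransferase, makes glutamate semialdehyde from ornithine in the same cells that make glutamine. It lies on chromosome 7 from 132557475 to 132576398 (minus strand), wholly inside the span that the table gives for Fgfr2, a gene with 819 to 1317 counts on the same strand. Oat had 1018, 921 and 430 CPM in Sox9HKO replicates 9, 10 and 12, against 788, 432 and 545 CPM in Sox9f/f replicates 5, 6 and 8. Sox9HKO replicate 12 and Sox9f/f replicate 6 shared the lowest level. Oat thus had a log2 fold change of 0.42 ± 0.34 (adjusted p = 0.496). It was 0.20 without Sox9HKO replicate 9 and 0.72 without replicate 12 (adjusted p = 0.158), and 0.26 without Sox9f/f replicate 6 and 0.70 without replicate 5.

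Slc1a2 is a high-affinity glutamate transporter that supplies glutamine synthesis. On chromosome 2 it runs from 102658659 to 102790784 (plus strand). Slc1a2 had 192, 181 and 98.7 CPM in Sox9HKO replicates 9, 10 and 12, against 137, 110 and 94.3 CPM in Sox9f/f replicates 5, 6 and 8. Sox9HKO replicates 9 and 10 lay above all Sox9f/f libraries, and replicate 12 lay among them. Its log2 fold change was 0.47 ± 0.26 (adjusted p = 0.343). It was 0.30 without Sox9HKO replicate 9, 0.71 without replicate 12 (adjusted p = 0.122) and 0.16 with length and GC trends removed.

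Rhbg moves ammonia across the membrane. It lies on chromosome 3 from 88242874 to 88254709 (minus strand), and shares its span with the gene model Gm38392, which had 0 to 7 counts. Rhbg had 41.1, 24.3 and 20.4 CPM in Sox9HKO replicates 9, 10 and 12, against 43.6, 19.9 and 16.4 CPM in Sox9f/f replicates 5, 6 and 8. As for Tbx3, 1 library of each group stood high, here Sox9HKO replicate 9 and Sox9f/f replicate 5. Rhbg stood at a log2 fold change of 0.10 ± 0.40 (adjusted p = 0.904), with a negative sign in 3 of the 6 fits that left out 1 library. It was -0.25 without Sox9HKO replicate 9, 0.29 without replicate 12 and 0.66 without Sox9f/f replicate 5.

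Lect2 encodes a secreted protein of hepatocytes that beta-catenin is known to switch on. On chromosome 13 it runs from 56542460 to 56548538 (minus strand). Lect2 had 224, 220 and 86.6 CPM in Sox9HKO replicates 9, 10 and 12, against 172, 152 and 198 CPM in Sox9f/f replicates 5, 6 and 8. Sox9HKO replicate 12 lay below all other libraries and the other members of its group lay above all of Sox9f/f. The mean was 177 ± 78.5 CPM in Sox9HKO and 174 ± 22.8 CPM in Sox9f/f (SD, n = 3 each). Its log2 fold change was 0.02 ± 0.32 (adjusted p = 0.975), and 0.35 without replicate 12 (adjusted p = 0.170) or -0.19 without replicate 9.

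**Figure D2:**
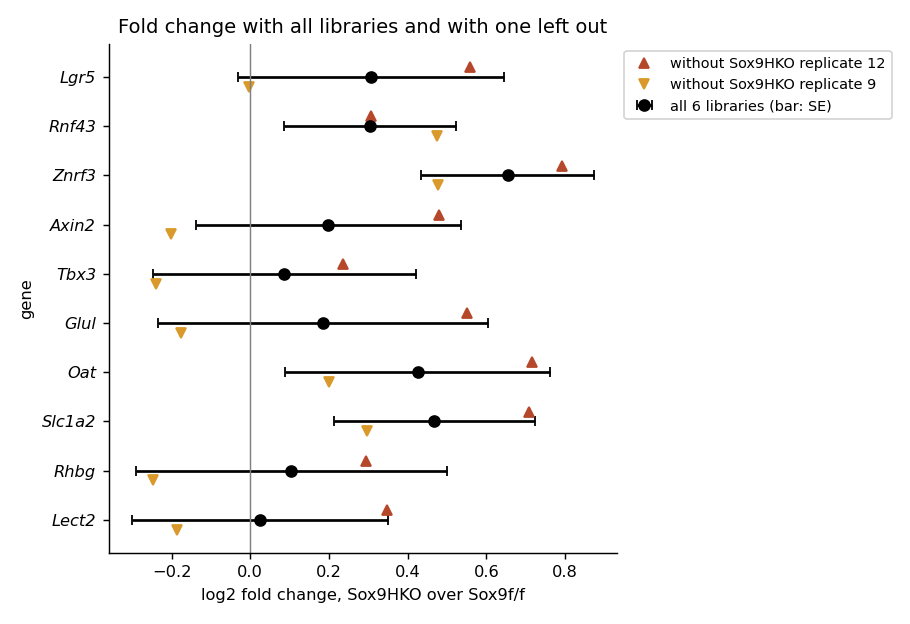
Log2 fold change of each gene, Sox9HKO over Sox9f/f, with all 6 libraries (black, bar = SE) and with 1 Sox9HKO library left out (triangles). All black points lie above 0, from 0.02 to 0.65, while 6 of the 10 lie below 0 once Sox9HKO replicate 9 is left out.

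Per gene length, the metabolic genes were the most abundant. The median over the 6 libraries was 439 FPKM for Glul, 299 FPKM for Oat and 204 FPKM for Lect2. Rhbg followed at 11.8 FPKM and Slc1a2 at 7.86 FPKM. The receptor, feedback and transcription factor genes were lower. Their medians were 2.98 FPKM for Rnf43, 2.05 FPKM for Axin2, 1.53 FPKM for Znrf3, 1.51 FPKM for Tbx3 and 0.763 FPKM for Lgr5. Over the libraries Znrf3 ranged from 0.942 to 2.52 FPKM and Tbx3 from 1.24 to 2.76 FPKM, so these neighbours did not differ beyond their spread. The gene lengths implied by the FPKM values were 15045 bases for Slc1a2 and 877 bases for Lect2, and what they cover is not given. A gene whose liver transcript is shorter than its implied length is set too low.

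The 10 genes differed more among the libraries labelled Sox9HKO than most genes did. The SD of log2 CPM over the 3 Sox9HKO libraries had a median of 0.56 over the 10 genes, against 0.22 over all genes tested. Of the lists described below, it was 0.63 for Wnt inhibitors and 0.56 for other common Wnt targets. It was 0.37 for the other pericentral genes and 0.41 for the periportal genes. The spread was thus not particular to the 10 genes. In the Sox9f/f libraries the medians were 0.39 for the 10 genes and 0.20 for all genes. Within Sox9HKO the SD of Glul was 0.95, above that of 96.9% of genes tested, and those of Lect2, Axin2 and Oat were above 94.6%, 92.8% and 92.2%. Znrf3 and Rnf43 varied least there, with an SD of 0.32 and 0.37. Within Sox9f/f it was Rhbg that varied most, at 0.75 (above 94.9% of genes), and Lect2 least, at 0.19.

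The deviations followed the same libraries in most of the 10 genes. In 9 of 10 replicate 9 was the highest and replicate 12 the lowest of the Sox9HKO libraries, with Rnf43 the exception. That order held for 19.3% of all genes tested. Over all 6 libraries replicate 9 was the highest in 7 of 10 genes, against 12.7% of all genes, and replicate 12 was the lowest in 4 of 10, against 21.8%. The median deviation of the 10 genes from their 6-library means (log2 CPM) was 0.65 in Sox9HKO replicate 9, 0.35 in replicate 10 and -0.44 in replicate 12. In Sox9f/f replicates 5, 6 and 8 it was -0.07, -0.19 and -0.28. Over all genes these medians lay between -0.00 and 0.02. In Sox9f/f no library led throughout, since replicate 5 was the highest of its group in 4 genes, replicate 6 in 2 and replicate 8 in 4. Replicate 5 stood out instead by kind of gene, above the 6-library mean in 5 of 5 metabolic and secretory genes (0.04 to 0.76) and below it in 5 of 5 receptor, feedback and transcription factor genes (-0.17 to -0.69).

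**Figure D3:**
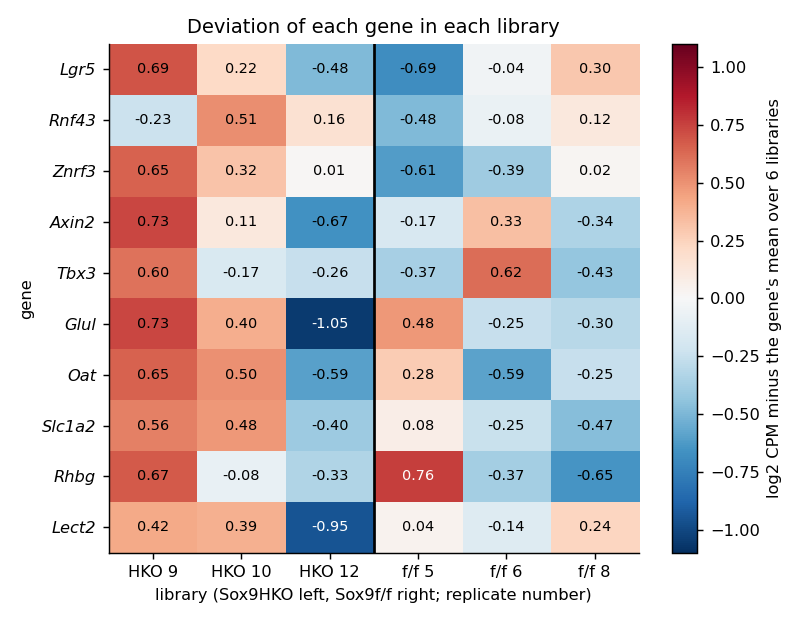
Log2 CPM of each gene in each library minus that gene's mean over the 6 libraries, shown as colour and number, with Sox9HKO libraries left of the line and Sox9f/f libraries right of it. The column of Sox9HKO replicate 9 is positive for all genes but Rnf43, and that of replicate 12 is negative for 8 of the 10, down to -1.05 for Glul.

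Leaving out single libraries moved the 10 genes together. Without Sox9HKO replicate 9, 4 of 10 had a positive log2 fold change and the median was -0.09. Without replicate 12 all 10 were positive and the median was 0.52, while over all genes 49.8% were positive. In that fit 4 genes, Oat, Slc1a2, Lect2 and Znrf3, were higher at an unadjusted p under 0.05, where 10.8% of all genes were higher and 11.9% lower. None of the 10 passed over all genes in edgeR in that fit (lowest adjusted p = 0.122, share called over all genes 0.014%). With each of the other libraries left out in turn, 8 or 9 of the 10 were positive. In those fits 0 or 1 of the 10 was higher at an unadjusted p under 0.05 in edgeR, against 6.46% to 11.1% of all genes. Without Sox9HKO replicate 9 it was 0 of 10, against 8.70% of all genes. Replicate 12 was the lowest Sox9HKO library for 9 of the 10, so leaving it out raises their Sox9HKO means.

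Other hepatocyte genes of the same and of the opposite zone were set beside them. Of 13 other genes known from pericentral hepatocytes, 13 were tested and 0 passed in edgeR, with 4 positive, 9 negative and a median of -0.09. DESeq2 also called 0, and 1 gene, Cyp2c29, was lower with an unadjusted p under 0.05, against 10.1% of all genes. Cyp2c29, a cytochrome P450 of drug metabolism, had 295, 256 and 144 CPM in Sox9HKO, against 311, 450 and 318 CPM in Sox9f/f, a log2 fold change of -0.63 ± 0.27 (edgeR adjusted p = 0.242). Its groups did not overlap, as for 14.3% of all genes in that direction. Without Sox9HKO replicate 12 Cyp2c29 was at -0.39. Ahr, a receptor for aromatic compounds, was at -0.37 ± 0.24, and at -0.0037 without Sox9f/f replicate 6, which had 83.1 CPM against 43.3 and 47.8 CPM in the other Sox9f/f libraries. Sox9HKO replicate 12 was the lowest of 6 libraries in 8 of the 13 genes, and their median deviation there was -0.38. In replicate 9 it was 0.19.

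Of 14 periportal genes, 14 were tested and 0 passed in edgeR, with 7 positive, 7 negative and a median of 0.00. DESeq2 also called 0, and 1 gene was higher and 1 lower with an unadjusted p under 0.05, against 9.74% and 10.1% of all genes. Cyp2f2, a cytochrome P450 of the portal zone, had 622, 541 and 250 CPM in Sox9HKO, against 878, 757 and 742 CPM in Sox9f/f (log2 fold change -0.75 ± 0.30, edgeR adjusted p = 0.226), and it was at -0.45 without Sox9HKO replicate 12. Cdh1, E-cadherin of periportal hepatocytes and bile ducts, was at 0.44 ± 0.17 (edgeR adjusted p = 0.211), and at 0.27 without Sox9f/f replicate 5. The groups overlapped for neither gene, as for 26.5% of all genes in either direction. The median deviation of the periportal genes was 0.24 in Sox9HKO replicate 12 and -0.14 in replicate 9, each of the opposite sign to that of the pericentral genes. The periportal list was split, however. Replicate 12 was the lowest Sox9HKO library in 5 of the 14 genes, against 39.3% of all genes. It was the lowest of 6 libraries in 3 of the 14, against 21.8% of all genes. The difference between the lists was not tested.

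**Figure D4:**
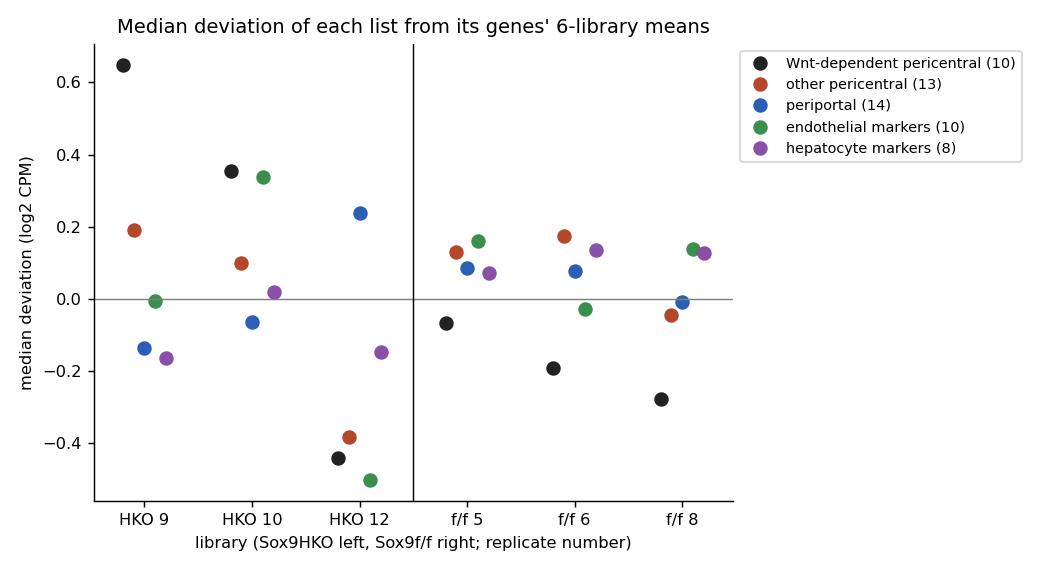
Median deviation of 5 gene lists from their genes' 6-library means (log2 CPM) in each library, Sox9HKO left of the line and Sox9f/f right of it. In Sox9HKO replicate 12 both pericentral lists and the endothelial markers lie below 0 (-0.44, -0.38 and -0.50) and the periportal list above it (0.24).

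Markers of cell types were summed in each library, as a rough view of its make-up. The 8 hepatocyte markers summed to 84468, 91622 and 84850 CPM in Sox9HKO replicates 9, 10 and 12 and to 103561 to 109575 CPM in Sox9f/f. Sox9HKO replicates 9 and 12, which lay at opposite ends for the 10 genes, differed little in this sum, but Alb made up most of it. Alb had 58190 and 59056 CPM in replicates 9 and 12. Cyp3a11 had 3060 and 1973 CPM there and Hnf4a 597 and 903 CPM, in opposite directions. Between the labels, 4 of the 8 markers were lower in all Sox9HKO libraries, as were 14.3% of all genes. The groups overlapped for Apoa1, Fgb, Cyp3a11 and Hnf4a. The 10 endothelial markers summed to 411, 496 and 340 CPM in Sox9HKO replicates 9, 10 and 12 and to 417 to 458 CPM in Sox9f/f, and replicate 12 was the lowest library for 9 of the 10. The 9 stellate cell and fibroblast markers summed to 724 to 958 CPM in Sox9HKO and 528 to 648 CPM in Sox9f/f. The 9 cholangiocyte markers summed to 227 to 317 CPM in Sox9HKO and 134 to 164 CPM in Sox9f/f. They include Cdh1, which is also in the periportal list. Cdh1 alone gave 95.8 to 102 CPM of the sum in Sox9HKO and 55.0 to 84.4 CPM in Sox9f/f. The 7 macrophage markers spanned 769 to 1480 CPM in Sox9HKO and 666 to 914 CPM in Sox9f/f. Cycling cell markers (5) came to 14.9 to 31.6 CPM in Sox9HKO and 7.58 to 12.1 CPM in Sox9f/f, and T, NK and B cell markers (6) to 2.43 to 4.81 CPM in Sox9HKO and 1.23 to 2.72 CPM in Sox9f/f. No marker of these lists was at 0 in all 6 libraries. The part of these cells in the levels of the 10 genes was not tested.

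The rest of the Wnt pathway was read from 6 lists of 81 genes, of which 63 were tested, 17 were left out by the filter and 1, Tle5, was not found under that symbol. In edgeR 0 passed, and 15 were higher and 3 lower with an unadjusted p under 0.05, against 9.74% and 10.1% of all genes. DESeq2 called 5 higher and 1 lower, against 2.31% and 1.97% of all genes. The median log2 fold change was 0.16, with 43 positive and 20 negative, where 50.5% of all genes were positive. The 15 higher and the 43 positive include Lef1, which passed the filter through the libraries labelled Sox9HKO.

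Among ligands, Wnt2 and Wnt9b of the central vein had lower means in Sox9HKO. Wnt9b had 3.47, 2.84 and 1.71 CPM in Sox9HKO replicates 9, 10 and 12, against 6.35, 6.58 and 7.71 CPM in Sox9f/f replicates 5, 6 and 8. All Sox9HKO libraries lay below all Sox9f/f libraries, as was the case for 14.3% of all genes. The log2 fold change was -1.36 ± 0.27, with an adjusted p of 0.139 in edgeR and 0.00116 in DESeq2, and -1.13 without Sox9HKO replicate 12. On the log2(FPKM + 0.5) scale of limma, which understates changes of low genes, it was -0.83. Wnt2 had 7.50, 6.89 and 2.18 CPM in Sox9HKO, against 8.40, 6.70 and 9.98 CPM in Sox9f/f (-0.60 ± 0.41, edgeR adjusted p = 0.440). Without replicate 12 it was at -0.22. Rspo3 had 11.8, 7.41 and 7.63 CPM in Sox9HKO, against 8.04, 7.93 and 6.49 CPM in Sox9f/f (0.26 ± 0.22, edgeR adjusted p = 0.536), and its log2 fold change was 0.0073 without Sox9HKO replicate 9. Wls, the carrier that brings Wnt proteins to the cell surface, was at 0.47 ± 0.16 (edgeR adjusted p = 0.185). The groups of Wls did not overlap, as for 12.2% of all genes in that direction. Of the 13 genes for ligands and their secretion 8 were tested and 5 were left out by the filter, with 4 positive and 4 negative.

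Of 13 receptor genes tested 10 were positive, and 5 were higher with an unadjusted p under 0.05, against 9.74% of all genes. Fzd6, a Frizzled receptor, had 7.73, 9.17 and 11.7 CPM in Sox9HKO, against 3.93, 4.54 and 3.00 CPM in Sox9f/f (1.31 ± 0.23). Its adjusted p was 0.139 in edgeR and 2.69e-04 in DESeq2. Lrp6 had 75.4, 82.4 and 131 CPM in Sox9HKO, against 64.7, 51.0 and 54.5 CPM in Sox9f/f (0.77 ± 0.22), with an adjusted p of 0.154 in edgeR and 0.0365 in DESeq2. Without Sox9HKO replicate 12 Lrp6 was at 0.47 and Fzd6 at 1.14. The groups overlapped for neither receptor gene, as for 12.2% of all genes in that direction. Sox9HKO replicate 12, the lowest of its group for Lgr5, was the highest for Fzd6 and Lrp6.

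In the destruction complex and Dishevelled list, 17 of 17 were tested, with 11 positive and 6 negative. At an unadjusted p under 0.05 in edgeR 4 were higher and 2 lower, against 9.74% and 10.1% of all genes. Amer1, which brings Apc to the membrane, was at 0.89 ± 0.23, with an adjusted p of 0.151 in edgeR and 0.0242 in DESeq2. Tnks2, a tankyrase that marks Axin proteins for degradation, was at 0.37 ± 0.11 (adjusted p = 0.160 in edgeR and 0.104 in DESeq2). Among 10 TCF/LEF factors and cofactors tested, 6 were positive, Lef1 included. Bcl9, which ties beta-catenin to Pygopus proteins, was at 0.48 ± 0.16 (edgeR adjusted p = 0.182). Lef1 was at or under 0.884 CPM in every library and at 0 in Sox9f/f replicate 6, so it passed the filter through the libraries labelled Sox9HKO.

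Of 13 inhibitors 6 were tested. Dkk3, of the Dickkopf family, had 11.6, 16.1 and 11.7 CPM in Sox9HKO, against 8.81, 8.08 and 8.04 CPM in Sox9f/f (0.66 ± 0.17), with an adjusted p of 0.151 in edgeR and 0.0384 in DESeq2. Sfrp5, a secreted decoy of Frizzled, was at or under 0.884 CPM in every library. Of 9 other common targets 8 were positive, against 50.5% of all genes, with a median of 0.23. Sox4, a transcription factor, had 7.43, 8.25 and 12.7 CPM in Sox9HKO, against 3.70, 4.39 and 3.13 CPM in Sox9f/f (1.34 ± 0.26), with an adjusted p of 0.139 in edgeR and 7.60e-04 in DESeq2. Ephb2, an ephrin receptor, was at 0.72 ± 0.42 (edgeR adjusted p = 0.365), with 0.42 without Sox9HKO replicate 10 and 1.21 without Sox9f/f replicate 6.

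**Figure D5:**
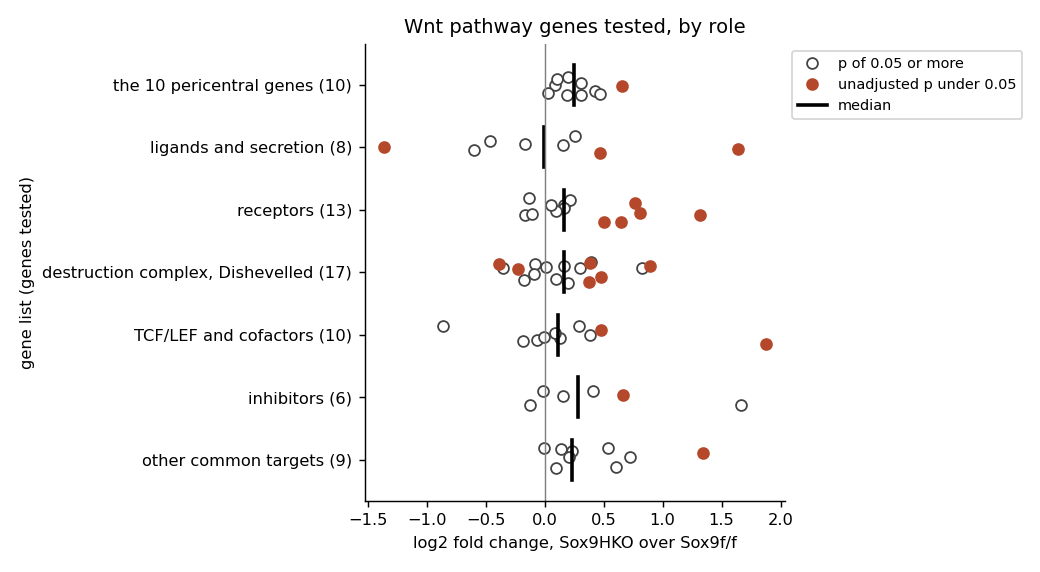
Log2 fold change, Sox9HKO over Sox9f/f, of each tested gene in the 10 pericentral genes and the 6 Wnt pathway lists (rows), filled where the unadjusted p was under 0.05, with the list median as a bar. The 10 pericentral genes lie between 0.02 and 0.65, and the ligands spread from -1.36 for Wnt9b to 1.64 for Wnt4, which was at 0.63 without Sox9HKO replicate 12.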

How the data were processed

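Liver mRNA libraries, 3 labelled Sox9HKO and 3 labelled Sox9f/f, were compared, grouped by genotype label. The table deposited by the authors gives raw counts per gene and, in the same rows, FPKM values per the file headers. Per the submitters' processing notes, the builds were mm10 and GRCm38.p4 and the tools HISAT2 2.0.4 and StringTie 1.3.0, in roles that are not spelled out. Not given in the sources used here are the counting tool, the annotation release and the use of strand. Each FPKM value equalled the count divided by the library total and a fixed gene length, within 0.00059% over 9720 genes.

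The test was edgeR 4.0.16 under R 4.3.3 (filterByExpr, TMM, robust quasi-likelihood fit, no covariates), with Benjamini-Hochberg adjustment and a threshold of 0.05. The filter left out 20608 of 34745 genes. The SE is the fold change over the root of its test statistic. The biological coefficient of variation was 0.216. P-values set the difference between the labels against the spread between libraries of a label. The labels do not describe these samples further. Scripts were checked on simulated counts. DESeq2 1.42.0 gave no adjusted p for 558 genes, left missing.

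Alternatives were DESeq2, limma 3.58.1 voom with quality weights, scaling by RLE, upper quartile or library size, 2 other filters, a non-robust fit, limma on log2(FPKM + 0.5), removal of length and GC trends (splines with 4 degrees of freedom, GENCODE M21), a threshold of 0.1, and each library left out in turn. Named genes were the 10 members, Sox9, Wnt2, Wnt9b and Rspo3, and of each other list the genes called, else those of the 2 smallest p. Members and lists were chosen with earlier results of these data known. Motifs were searched in RefSeq windows. Figures were drawn with matplotlib 3.10.9.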

Additional observations from a re-analysis of the deposited data

How the results depend on the processing

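Over 16 alternatives for each of the 10 genes, 148 of 160 fold changes kept their sign and their side of the threshold, and 0 passed the threshold. The 10 alternatives that used all 6 libraries left 10 of 10 genes positive. The other 12 changed sign, each on leaving out 1 library. With 1 library left out, log2 fold changes ranged from -0.18 to 0.55 for Glul, -0.20 to 0.48 for Axin2, -0.0044 to 0.56 for Lgr5, -0.24 to 0.53 for Tbx3, -0.19 to 0.35 for Lect2 and -0.25 to 0.66 for Rhbg. Positive throughout were Oat (0.20 to 0.72), Rnf43 (0.11 to 0.47), Znrf3 (0.48 to 0.85) and Slc1a2 (0.30 to 0.71). The count of the 10 genes called was 0 in all settings. Over all genes edgeR called 0 (2800 at an unadjusted p under 0.05), DESeq2 605, edgeR with no filter beyond 1 count in 2 libraries 5, and edgeR at an adjusted p under 0.1 likewise 5. Leaving out 1 library gave 0 to 3 calls. The causes were not tested. Scaling by library size alone in place of TMM shifted all genes by 0.11 at the median (log2), and the median of the other pericentral genes then stood at 0.03 instead of -0.09. No paired analysis was possible because the groups share no replicate numbers. With 3 libraries a group, the SEs of the 10 genes (0.22 to 0.42 on the log2 scale) limit what could be called.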

Other observations

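Genes singled out here were chosen after their values were seen. Wnt4, a Wnt ligand, had 9.26, 10.4 and 39.5 CPM in Sox9HKO replicates 9, 10 and 12, against 4.84, 9.08 and 5.03 CPM in Sox9f/f replicates 5, 6 and 8. Its log2 fold change was 1.64 ± 0.57 (edgeR adjusted p = 0.189), and 0.63 without Sox9HKO replicate 12. Cyp1a2, a cytochrome P450 of pericentral hepatocytes, had 553, 867 and 97.1 CPM in Sox9HKO replicates 9, 10 and 12, against 516, 425 and 392 CPM in Sox9f/f replicates 5, 6 and 8. Cps1, the first enzyme of the urea cycle and a gene of the portal zone, had 3017, 3176 and 5119 CPM in Sox9HKO, against 3177, 4300 and 4017 CPM in Sox9f/f. Thbd, thrombomodulin of vein endothelium, had 11.5, 9.87 and 9.33 CPM in Sox9HKO, against 30.0, 23.4 and 19.6 CPM in Sox9f/f. Its groups did not overlap, as for 14.3% of all genes in that direction. Of the 10 endothelial markers 7 had a negative and 3 a positive log2 fold change, with a median of -0.12.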
